A study of Mus musculus with 536 samples.

Results

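BCL2 family genes were followed in peripheral blood of mice after total body irradiation. The genes were chosen by name: Bcl2, Bcl2l1 (BCL-XL), Mcl1, Bcl2l11 (BIM), Bid and Bak1, which are 6 of the 12393 genes with a single symbol on the array. Where several probe sets stood for a gene, the one with the highest mean over all 536 arrays was used, and every dose, time and agent was kept.

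The mice were C57BL/6, 10 to 12 weeks old, and blood was drawn once by terminal cardiac puncture after Cs137 irradiation. The largest set (dose-time set) covered 240 mice, 5 in each of 48 groups: the doses were 100, 200 and 300 cGy, 450 and 600 cGy, 800 and 1050 cGy, and 0 cGy, each at 6, 24, 48, 72, 120 and 168 hr. The sex-treatment set held 226 mice, 111 females and 115 males, in 48 groups of 3 to 5: GCSF, LPS or no agent, each with 200, 300 or 600 cGy, and 0 cGy, at 6 and 24 hr. The small treatment set comprised 50 mice, 5 or 6 in each of 9 groups: GCSF, LPS or no agent with 150 or 600 cGy, and 0 cGy, at 6 hr. The small 7 day set comprised 18 mice: 10 given 150 cGy and 3 given 0 cGy, both at 168 hr, and 5 more at 0 cGy (3 at 6 hr and 2 at 24 hr). The labels give the sex of each mouse in the sex-treatment set alone and do not say when the agents were given. GCSF is a growth factor for neutrophils, and LPS is a bacterial endotoxin.

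BCL2 family proteins decide whether the outer mitochondrial membrane is opened, the step that releases cytochrome c and starts the caspase cascade. BCL2, BCL-XL and MCL1 hold cells alive by binding the proteins that would open the membrane. BIM and BID belong to the BH3-only proteins, which sense damage or loss of growth factors and activate the pore-forming BAK and BAX. In blood, lymphocytes lean on BCL2, neutrophils on MCL1, and maturing red cells and platelets on BCL-XL. Blood is a mixture, so fewer cells of a type and less RNA per cell cannot be told apart in any value below. In the RefSeq annotation of GRCm38.p6 the genes lie at chr1:106538176-106714290 (Bcl2), chr2:152758732-152833803 (Bcl2l1), chr3:95656944-95663179 (Mcl1), chr2:128126038-128162547 (Bcl2l11), chr6:120893119-120917062 (Bid) and chr17:27019812-27028627 (Bak1). All levels are log2 signals as the authors deposited them, in which 1 unit is a 2-fold difference. Levels of different genes were not set against each other, because each comes from a probe set of its own.

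The arrays carried the markers of blood: in the 0 cGy mice of 6 hr in the dose-time set, Ms4a1 (B cells) averaged 11.8 ± 0.16, S100a8 (neutrophils) 12.6 ± 0.31, Alas2 (red cell precursors) 14.28 ± 0.04 and Pf4 (platelets) 12.69 ± 0.15 (SD, n = 5). Alb, which encodes albumin, a product of the liver, averaged 5.84 ± 0.31 in the same mice. Its signal was 10 or more in 1 of 40 mice at 6 hr, 23 at 24 hr, 26 at 48 hr, 21 at 72 hr, 21 at 120 hr and 24 at 168 hr in that set, in 61 of 226 mice of the sex-treatment set, 23 of 50 of the small treatment set and 3 of 18 of the small 7 day set. The dose-time set was also fitted without these arrays, which left 2 mice at 0 cGy at 24 hr and at 48 hr, and 3 at 72 hr. The irradiated groups kept 1 or 2 mice each at 48 hr and 1 to 4 at 72 hr. At 24 hr no mouse was left at 300 cGy and 1 each at 450 and 600 cGy. The other sets were not fitted in this way. At 48 and 72 hr all 11 dose trends called in the full fit kept their direction without these arrays, though on few mice.

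Bid, Bak1 and Bcl2l11 are the 3 death-promoting genes, and all of them rose with dose at 48 and 72 hr, so the 250 bases before a start that RefSeq's promoter table gives for each are shown ( GRCm38.p6, 5′ to 3′ on the gene's strand). Capitals mark the GC box GGGCGG and the FOXO core GTAAACA, searched on both strands.
Bid, chr6:120916825-120917074, minus strand: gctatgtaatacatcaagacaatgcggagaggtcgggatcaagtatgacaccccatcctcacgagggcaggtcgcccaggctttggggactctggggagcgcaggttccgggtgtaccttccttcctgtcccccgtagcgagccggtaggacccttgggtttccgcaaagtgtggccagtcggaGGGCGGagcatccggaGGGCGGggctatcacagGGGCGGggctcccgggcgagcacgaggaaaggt
Bak1, chr17:27028628-27028877, minus strand: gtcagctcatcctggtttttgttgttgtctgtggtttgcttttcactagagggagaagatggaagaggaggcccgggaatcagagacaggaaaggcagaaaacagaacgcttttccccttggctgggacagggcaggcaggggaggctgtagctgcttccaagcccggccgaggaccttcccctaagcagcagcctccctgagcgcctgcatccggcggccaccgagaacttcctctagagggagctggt
Bcl2l11, chr2:128125788-128126037, plus strand: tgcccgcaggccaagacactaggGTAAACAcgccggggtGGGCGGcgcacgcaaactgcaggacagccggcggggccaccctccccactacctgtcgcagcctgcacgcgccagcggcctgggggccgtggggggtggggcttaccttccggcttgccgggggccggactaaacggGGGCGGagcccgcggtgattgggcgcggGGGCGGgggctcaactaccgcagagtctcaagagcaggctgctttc
For Bid the table's start lies inside the gene's interval given above, and for Bcl2l11 the table lists a second start, at chr2:128127325-128127574, whose window is not printed. The printed windows of Bid and of Bcl2l11 each held 3 GC boxes and that of Bak1 none, and the second Bcl2l11 window held 2. Of the genes not printed, Bcl2l1 also rose with dose at 48 and 72 hr, and each of its windows held 0. The window of Bcl2, which fell at these times, held 7 and that of Mcl1 held 1. The printed Bcl2l11 window held 1 FOXO core and the second one 0, which is the binding motif of a transcription factor family known to drive Bim when growth factors are withdrawn. A GC box lay in 32.7% and a FOXO core in 3.2% of the 32851 windows of this length in the table. The p53 half-site RRRCWWGYYY (R is A or G, W is A or T, Y is C or T) was searched in the same way. It lay in no window of Bid, Bak1 or Bcl2l11, and in 7.1% of all windows. The GC content was 63.6% for Bid, 58.4% for Bak1 and 72.0% for Bcl2l11. These matches describe the letters of the windows and were not tested as binding sites.

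The response of the family to dose was asked first, at each time on its own. The dose slope is the change of the group means in log2 units per 100 cGy, fitted across all 12393 genes with limma, and a gene was called at an adjusted p under 0.05 (Benjamini-Hochberg over all genes). The p-values measure the spread between mice. At 6 hr 2 of the 6 genes rose with dose and none fell, where 16.2% of all genes rose and 18.5% fell. At 24 hr 2 rose and 1 fell, against 18.9% of all genes rising and 19.8% falling. At 48 hr all 6 were called, 5 rising and 1 falling, against 24% and 23.3% of all genes. At 72 hr 4 rose and 1 fell, against 26.3% and 27.1%. At 120 hr 3 rose and 2 fell, against 35.4% and 47%, and at 168 hr 2 rose and 2 fell, against 35.5% and 46.6%. The median slope of the 6 genes was 0.104 at 48 hr and 0.066 at 72 hr, where the median of all genes was -0.003 and -0.005. The dose slope differed between the times for all 6 genes, as it did for 92.3% of all genes (moderated F test over the 6 slopes). The F values were 93.952 for Bcl2l1, 31.245 for Bak1, 22.258 for Bid, 11.468 for Mcl1, 9.25 for Bcl2 and 6.905 for Bcl2l11.

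**Figure D1:**
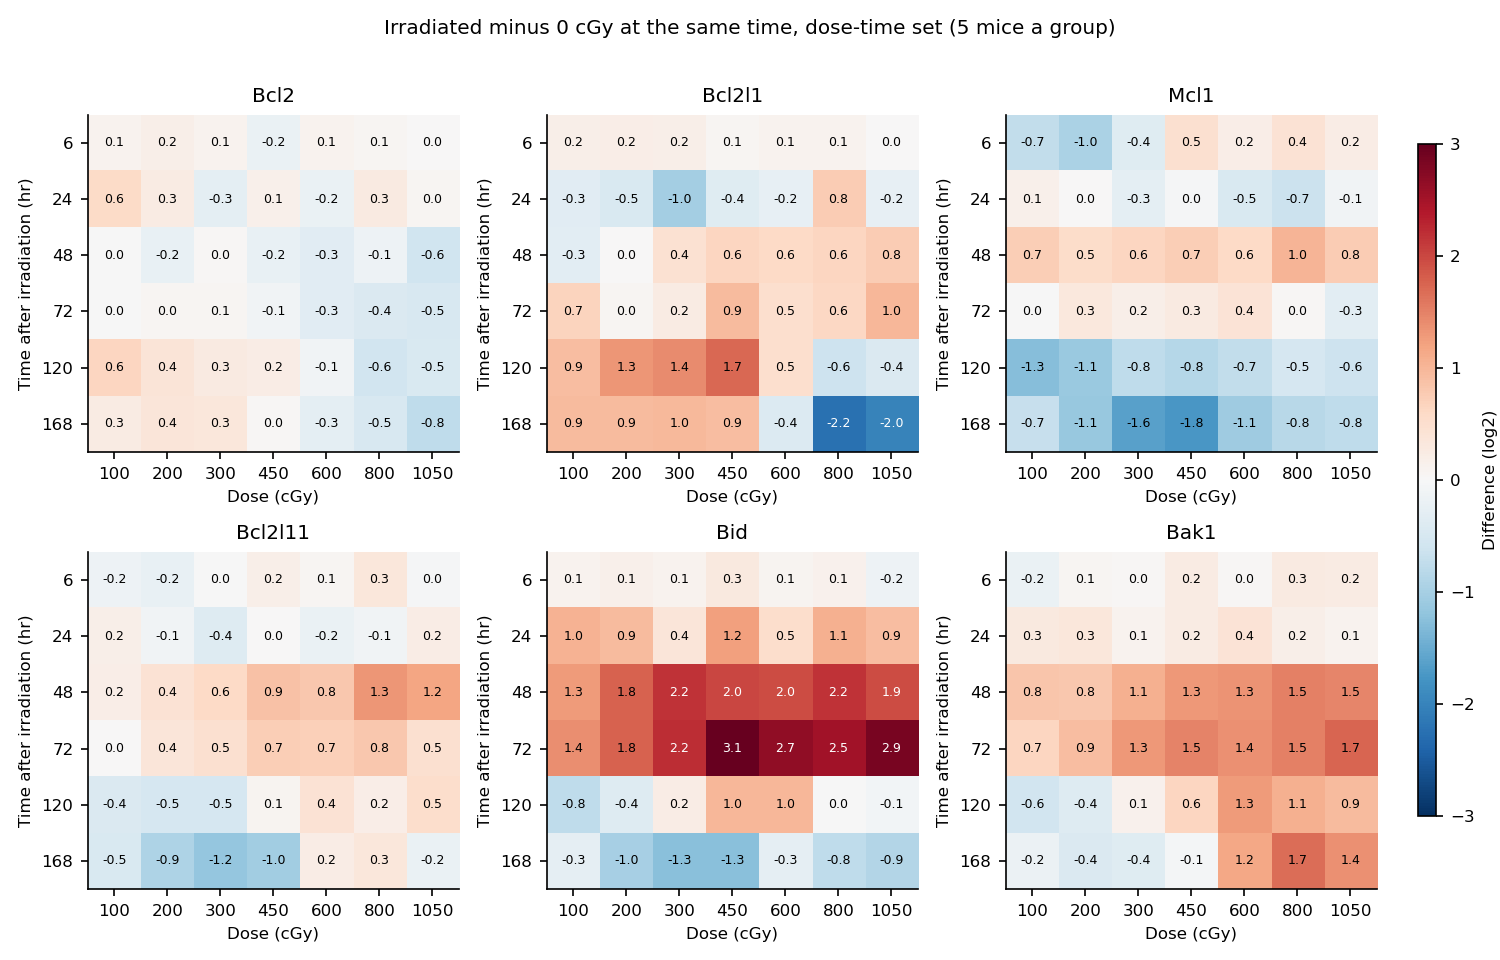
Mean log2 level of each irradiated group minus the mean of the 0 cGy group of the same time, for the 6 genes in the dose-time set (5 mice a group), with dose on one axis in cGy and time on the other in hr. Bid and Bak1 stood above 0 cGy at every dose at 48 and 72 hr, and Bcl2l1 changed sign between 450 and 800 cGy at 120 and 168 hr.

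Bid, which caspase-8 cuts into a form that links death receptors to mitochondria, had the widest range of the 6 genes. Its group means in the dose-time set ran from 6.53 (300 cGy, 168 hr) to 10.63 (450 cGy, 72 hr), with a median SD within groups of 0.31. At 72 hr Bid stood at 9.88, 9.92, 10.35, 10.38 and 10.48 in the 5 mice given 600 cGy, against 7.23, 7.44, 7.46, 7.65 and 7.89 in the 5 mice given 0 cGy. Every irradiated mouse was above every unirradiated one, and the means differed by 2.66 ± 0.27 (SE). Mice given 100 cGy already stood at 8.34, 8.61, 8.84, 9.23 and 9.58 at that time, 1.39 ± 0.27 above the 0 cGy mice (adjusted p = 2.54e-05). The slope at 72 hr was 0.213 ± 0.020 per 100 cGy (adjusted p = 3.11e-20), and at 48 hr it was 0.128 ± 0.020 (adjusted p = 4.75e-09). Without the arrays with an Alb of 10 or more these slopes were 0.199 ± 0.025 and 0.117 ± 0.032. The level was not proportional to dose: between 0 and 300 cGy alone the slope was 0.699 ± 0.091 at 48 hr and 0.704 ± 0.091 at 72 hr. Within the 5 array runs, each of which held 1 mouse of every group, Bid was higher at 100 cGy than at 0 cGy in 5 of 5 runs at both times (by 1.03 to 1.56 at 48 hr and 1.10 to 1.79 at 72 hr).

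At 24 hr Bid measured 8.51, 8.52, 9.16, 9.18 and 9.56 at 450 cGy, against 7.60, 7.67, 7.80, 7.83 and 7.84 at 0 cGy. The groups did not overlap, and the slope over the doses was 0.047 ± 0.020 (adjusted p = 0.0494). Within array runs at 24 hr Bid was higher than at 0 cGy in 4 of 5 runs at 300 cGy and at 600 cGy. At each other dose it was higher in 5 of 5 runs. The 24 hr trend was called in only 1 of 5 fits that left out 1 mouse of every group. At 6 hr the slope of Bid was -0.012 ± 0.020 (adjusted p = 0.666), so no response to dose was detected there. At 120 hr it rose with dose by 0.047 ± 0.020 (adjusted p = 0.0229), with 8.49, 8.89, 8.93, 9.09 and 9.29 at 450 cGy, against 7.76, 7.89, 7.95, 7.96 and 8.13 at 0 cGy. Other doses went the other way at 120 hr: within array runs Bid was lower than at 0 cGy in 5 of 5 runs at 100 cGy, in 4 of 5 at 200 cGy and in 4 of 5 at 1050 cGy. The 120 hr trend was called in 3 of 5 fits that left out 1 mouse of every group and was not called without the arrays with an Alb of 10 or more (0.107 ± 0.071, adjusted p = 0.216). At 168 hr the order was turned: Bid stood at 5.50, 6.55, 6.60, 6.96 and 7.05 at 300 cGy, against 7.47, 7.58, 7.71, 7.88 and 8.34 at 0 cGy. The slope over all doses at 168 hr missed the threshold (-0.040 ± 0.020, adjusted p = 0.0512), and the lowest mean was that at 300 cGy. An F test over the 7 doses passed (F = 6.35, adjusted p = 1.36e-06). Over the 42 irradiated groups of the dose-time set, Bid was above all 0 cGy mice of its time in every mouse of 21 groups, below all of them in 6 groups, and overlapped in 15. Such overlap counts, here and for the genes below, were not made for all genes, so no background stands beside them.

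The platelet marker list moved with Bid. Its mean level (over 12 genes, relative to 0 cGy) was 1.84 to 2.29 higher in the mice given 600 cGy at 72 hr. At 48 hr it was 0.90 to 1.65 higher. Over the 48 groups of the dose-time set the correlation of Bid with the platelet list was 0.94, and over the 48 groups of the sex-treatment set it was 0.67. Such correlations, here and below, use the mean level of each group, not its difference from 0 cGy. The groups share array runs, and the part of platelets in the result was not tested.

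Bak1, one of the proteins that form the pore, rose with dose at 5 of the 6 times. At 48 hr Bak1 stood at 6.83, 6.90, 6.91, 7.12 and 7.42 in mice given 600 cGy, against 5.45, 5.62, 5.72, 5.82 and 5.87 in mice given 0 cGy. At 72 hr it stood at 6.78, 6.91, 7.07, 7.14 and 7.15 at 600 cGy, against 5.42, 5.48, 5.66, 5.72 and 5.95 at 0 cGy. No mouse given 600 cGy reached down to the 0 cGy range at either time, and the slopes were 0.116 ± 0.014 (adjusted p = 7.5e-14) and 0.135 ± 0.014 (adjusted p = 8.41e-18). In all 5 array runs Bak1 was higher than at 0 cGy at each of the 7 doses at 48 and 72 hr.

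Monocyte, macrophage and erythroid genes moved in the same mice. At 600 cGy the mean level of 7 monocyte genes lay 0.46 to 1.12 above the 0 cGy mean at 48 hr. At 72 hr it lay 1.57 to 1.9 above. For 9 tissue macrophage genes these ranges were 0.36 to 2.98 and 2.91 to 3.68. The 0 cGy mice themselves spread from -0.36 to 0.66 and from -0.84 to 0.80 in the monocyte list, and from -0.68 to 1.34 and from -1.54 to 1.32 in the macrophage list, so only the 72 hr ranges were apart. The erythroid and reticulocyte list (8 genes) stood at -4.05 to -2.84 relative to 0 cGy at 48 hr and at -4.91 to -2.80 at 72 hr. Over the 48 groups of the dose-time set the correlation of Bak1 was 0.88 with the monocyte list, 0.84 with the tissue macrophage list and -0.86 with the erythroid list (0.06, 0.05 and -0.40 over the groups of the sex-treatment set), and the part of these cells in the Bak1 values was not tested.

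The late rise of Bak1 lay in the high doses. At 168 hr Bak1 stood at 7.01, 7.39, 7.53, 7.68 and 8.01 at 800 cGy, and at 5.28, 5.49, 5.70, 6.19 and 6.30 at 450 cGy, against 5.70, 5.70, 5.71, 5.92 and 6.18 at 0 cGy. The 800 cGy mice were all above both other groups, while the 450 cGy and 0 cGy mice overlapped. The slope over all doses was 0.203 ± 0.014 (adjusted p = 1.94e-32). Over 0 to 300 cGy alone the direction turned, with a slope of -0.134 ± 0.056 (adjusted p = 0.025), and without the arrays with an Alb of 10 or more it was -0.140 ± 0.056 (adjusted p = 0.0189). At 120 hr the slope was 0.158 ± 0.014 (adjusted p = 9.02e-23), and it was lost over 0 to 300 cGy (0.059 ± 0.056, adjusted p = 0.403). The slope at 6 hr was small (0.034 ± 0.014, adjusted p = 0.0451), was called in 2 of 5 fits that left out 1 mouse of every group, and did not pass an F test over the doses (adjusted p = 0.257). At 24 hr no trend was detected (0.001 ± 0.014, adjusted p = 0.95). Bak1 lay above every 0 cGy mouse of its time in 21 of the 42 irradiated groups, below in 4, and overlapped in 17. A second Bak1 probe set, with a mean level of 4.52, gave a slope of -0.013 at 120 hr (adjusted p = 0.245). Over the 40 comparisons of all sets it lost 10 calls of the probe set used, turned the sign of 3 and gained 0. Most Bak1 calls, here and below, thus rest on 1 probe set.

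Bcl2l11 encodes BIM, which binds all of the survival members and is lost or gained when growth factor signals change. At 48 hr Bcl2l11 stood at 8.72, 8.88, 9.06, 9.16 and 9.19 at 800 cGy, against 7.34, 7.43, 7.47, 7.93 and 8.19 at 0 cGy. The groups did not overlap, the means differed by 1.33 ± 0.21, and the slope was 0.119 ± 0.015 (adjusted p = 3.29e-12). At 72 hr the slope was 0.060 ± 0.015 (adjusted p = 0.000318), with a mean 0.81 ± 0.21 above 0 cGy at 800 cGy. At 6 and 24 hr none was detected (0.025 ± 0.015, adjusted p = 0.192, and 0.010 ± 0.015, adjusted p = 0.619).

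At 168 hr the middle doses were the low ones for Bcl2l11. It stood at 6.78, 6.96, 7.11, 7.16 and 7.26 at 450 cGy and at 8.14, 8.23, 8.36, 8.44 and 9.0 at 800 cGy, against 7.63, 7.79, 8.09, 8.41 and 8.55 at 0 cGy. The 450 cGy mice were all below the 0 cGy mice and the 800 cGy mice overlapped them. The slope over all doses was 0.061 ± 0.015 (adjusted p = 0.000157), and over 0 to 300 cGy it was -0.398 ± 0.055 (adjusted p = 1.6e-09). Within array runs at 168 hr Bcl2l11 was above 0 cGy in 4 of 5 runs at 800 cGy and in 2 of 5 at 1050 cGy. The positive slope at 168 hr was seen with this probe set and not with 3 of the other 4, whose slopes were -0.016, -0.032 and -0.050.

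Bcl2l1 encodes BCL-XL, and its response to dose differed most between early and late times. At 48 hr Bcl2l1 stood at 10.99, 11.04, 11.05, 11.22 and 11.22 at 1050 cGy, against 10.15, 10.22, 10.40, 10.44 and 10.54 at 0 cGy. The groups did not overlap, and the slope was 0.092 ± 0.016 (adjusted p = 1.01e-07). At 72 hr it rose by 0.073 ± 0.016 per 100 cGy (adjusted p = 2.57e-05). The dimmest of the other 3 Bcl2l1 probe sets, with a mean level of 4.63, gave -0.010 and -0.016 at these times, and neither passed the threshold. At 120 hr Bcl2l1 stood at 11.31, 11.43, 11.67, 11.76 and 11.85 at 450 cGy and at 8.84, 9.15, 9.33, 9.43 and 9.58 at 800 cGy, against 9.68, 9.73, 9.81, 9.99 and 10.15 at 0 cGy. The 450 cGy mice were all above and the 800 cGy mice all below the unirradiated mice.

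By 168 hr the unirradiated mean of Bcl2l1 was 10.56 ± 0.22, that of the 100 cGy mice 11.50 ± 0.15 and that of the 450 cGy mice 11.49 ± 0.17, whereas 600 cGy gave 10.15 ± 0.79, 800 cGy 8.32 ± 0.30 and 1050 cGy 8.56 ± 0.32 (SD, n = 5 each). The mice given 800 cGy, at 7.81, 8.35, 8.39, 8.46 and 8.58, were all below the 0 cGy mice, at 10.35, 10.40, 10.53, 10.60 and 10.91, and the mice given 450 cGy, at 11.29, 11.36, 11.54, 11.54 and 11.71, were all above them. At 600 cGy the 5 mice ranged from 8.98 to 11.17 and overlapped. The slope over all doses was -0.131 ± 0.016 at 120 hr (adjusted p = 7.74e-14) and -0.303 ± 0.016 at 168 hr (adjusted p = 4.02e-45), while over 0 to 300 cGy it was 0.465 ± 0.064 and 0.292 ± 0.064 (adjusted p = 7.33e-09 and 4.84e-05). Bcl2l1 was thus higher than at 0 cGy on the low side of the dose range and lower on the high side. Over 42 irradiated groups Bcl2l1 was above all 0 cGy mice in 15, below them in 5, and overlapped in 22.

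Erythroid and hepatocyte genes moved with dose at the same late times. The erythroid and reticulocyte list (8 genes) stood 0.71 to 0.98 above 0 cGy at 100 to 450 cGy at 120 and 168 hr in group means, and -4.60 to -5.01 relative to 0 cGy at 800 and 1050 cGy. The hepatocyte list (12 genes) stood 7.28 to 8.18 above 0 cGy at 600 to 1050 cGy at these times, and 4.51 and 5.18 above it at 450 cGy. All 20 mice given 450 to 1050 cGy had an Alb (albumin) signal of 10 or more at 120 hr and again at 168 hr, against 1 of 20 and 4 of 20 mice given 0 to 300 cGy. The part of red cells and of liver RNA in the late values of Bcl2l1, Bak1 and Bcl2l11 was not tested. Left out of the fit, the arrays with an Alb of 10 or more took the high doses at 120 and 168 hr with them, and the slope of Bcl2l1 was then 0.462 ± 0.043 and 0.284 ± 0.046.

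**Figure D2:**
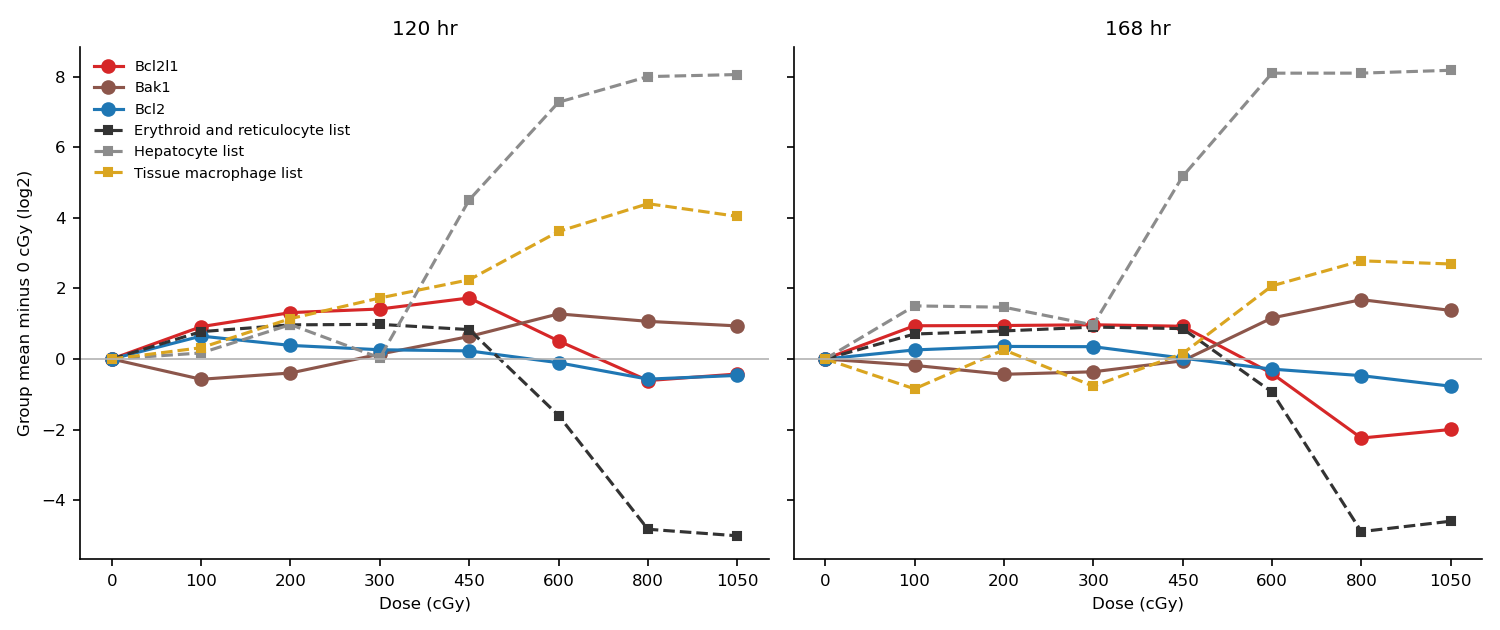
Levels of Bcl2l1, Bak1 and Bcl2, and levels averaged over the genes of the erythroid, hepatocyte and tissue macrophage lists, by dose in cGy at 120 and 168 hr, on the log2 scale relative to 0 cGy of the same time. Bcl2l1 and the erythroid list both stand above 0 up to 450 cGy and below 0 at 800 and 1050 cGy, and the hepatocyte list lies 7.28 or more above 0 from 600 cGy on.

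Mcl1 encodes a survival protein that turns over within hours and that neutrophils depend on. At 6 hr Mcl1 stood at 9.25, 9.77, 9.93, 10.07 and 10.13 at 100 cGy and at 10.90, 11.03, 11.07, 11.13 and 11.21 at 450 cGy, against 10.38, 10.42, 10.55, 10.58 and 10.94 at 0 cGy. The 100 cGy mice were all below the 0 cGy mice (-0.75 ± 0.21, adjusted p = 0.00509), and 4 of the 5 mice at 450 cGy were above all of them. The slope at 6 hr was 0.095 ± 0.016 (adjusted p = 1.64e-07), and over 0 to 300 cGy it was -0.131 ± 0.068 (adjusted p = 0.0995). The mean level of 11 mature neutrophil genes was 2.16 to 2.62 higher at 600 cGy than at 0 cGy at that time. Its part in the Mcl1 values was not tested.

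At 48 hr Mcl1 rose with dose (0.052 ± 0.016, adjusted p = 0.00304), with 10.80, 11.10, 11.30, 11.49 and 11.69 at 800 cGy, against 9.77, 10.04, 10.15, 10.67 and 10.71 at 0 cGy. At 168 hr it was low at the middle doses: 9.22, 9.31, 9.33, 9.40 and 9.49 at 450 cGy and 9.93, 10.06, 10.45, 10.59 and 10.63 at 1050 cGy, against 10.91, 10.96, 11.09, 11.26 and 11.28 at 0 cGy. Both irradiated groups lay wholly below the 0 cGy mice. With the probe set used, no linear trend passed at 120 or 168 hr (0.011 ± 0.016, adjusted p = 0.522, and -0.027 ± 0.016, adjusted p = 0.106). The F test over the 7 doses did (F = 6.60, adjusted p = 7.47e-07, and F = 13.6, adjusted p = 6.55e-14). The mean was below 0 cGy at each of the 7 doses at both times. Over the 42 irradiated groups Mcl1 was below every 0 cGy mouse in 13, above in 1, and overlapped in 28. The other 5 Mcl1 probe sets gave a slope of 0.083 to 0.115 at 168 hr, opposite in sign to the one used. Each of these 5 rises passed the threshold, so the linear result at 168 hr depends on the probe set.

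Bcl2 itself, the survival protein of naive lymphocytes, moved least, with group means between 6.07 (1050 cGy, 168 hr) and 7.48 (200 cGy, 6 hr). At 168 hr Bcl2 stood at 5.84, 6.00, 6.15, 6.16 and 6.17 at 1050 cGy and at 6.86, 7.00, 7.01, 7.29 and 7.30 at 100 cGy, against 6.42, 6.77, 6.90, 6.97 and 7.11 at 0 cGy. The 1050 cGy mice were all below the 0 cGy mice and the 100 cGy mice overlapped them. The slope was -0.048 ± 0.013 at 48 hr (adjusted p = 0.000895), -0.057 ± 0.013 at 72 hr (adjusted p = 4.75e-05), -0.093 ± 0.013 at 120 hr (adjusted p = 3.26e-11) and -0.099 ± 0.013 at 168 hr (adjusted p = 2.03e-12). Over 0 to 300 cGy no fall was detected at any of these times: the slope was -0.008 ± 0.051 at 48 hr, 0.025 ± 0.051 at 72 hr and 0.052 ± 0.051 at 120 hr. Without the arrays with an Alb of 10 or more it was 0.048 ± 0.044 at 120 hr (adjusted p = 0.375). At 168 hr it was 0.114 ± 0.051 over 0 to 300 cGy (adjusted p = 0.0387), and without the arrays with an Alb of 10 or more it was 0.106 ± 0.047 (adjusted p = 0.0357). In 37 of the 42 irradiated groups Bcl2 overlapped the 0 cGy mice. Over the 48 groups Bcl2 ran opposite to the tissue macrophage (r = -0.84), hepatocyte (-0.80) and monocyte lists (-0.78), whose part in its values was not tested.

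**Figure D3:**
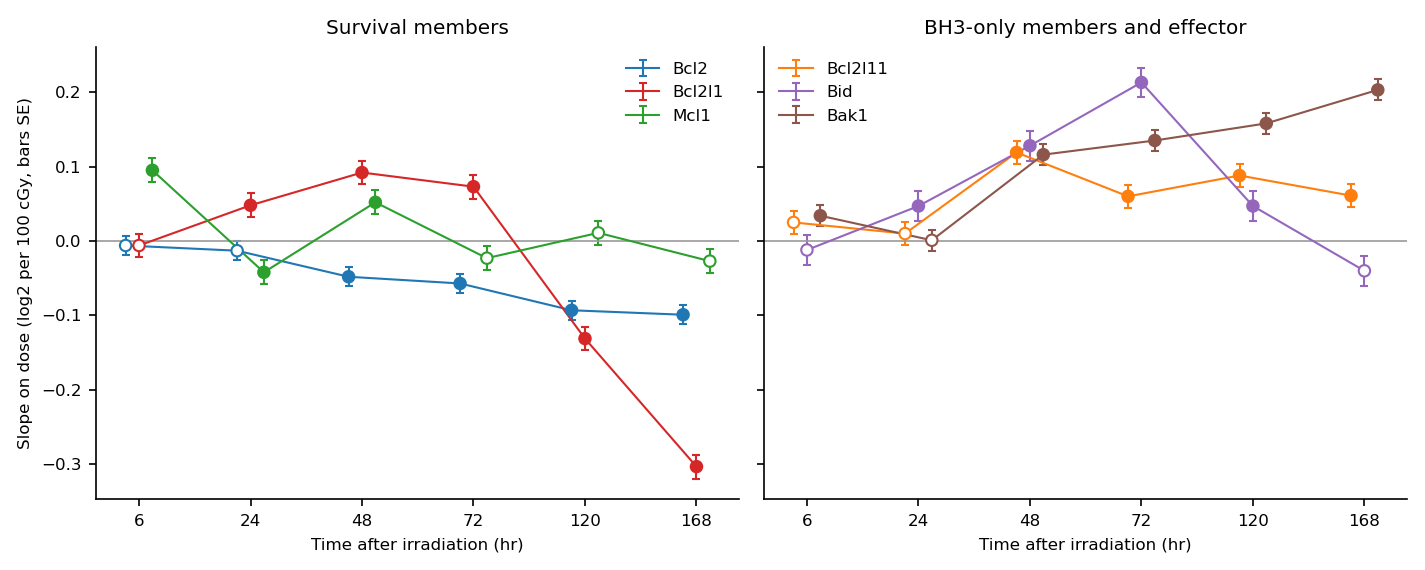
Dose slope of the 6 genes in log2 units per 100 cGy against time after irradiation in hr, in the dose-time set (bars are standard errors, filled points passed an adjusted p of 0.05). Bid reaches 0.213 at 72 hr, Bak1 0.203 at 168 hr and Bcl2l1 -0.303 at 168 hr.

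At 24 hr Bcl2l1 rose (0.048 ± 0.016, adjusted p = 0.0114) and Mcl1 fell (-0.042 ± 0.016, adjusted p = 0.0247) with dose, and Bid rose as given above. Bcl2l1 stood at 8.71, 8.95, 8.97, 9.01 and 9.87 at 300 cGy and at 10.50, 10.64, 10.90, 11.13 and 11.18 at 800 cGy, against 9.90, 10.02, 10.06, 10.21 and 10.35 at 0 cGy. The 800 cGy mice were above and the 300 cGy mice below the unirradiated ones. Without the 800 cGy mice none of the 3 trends passed: the slope was 0.003 ± 0.017 for Bcl2l1 and -0.025 for Mcl1, while that of Bid, at 0.040 ± 0.022 (adjusted p = 0.152), was close to its full value. No other dose was left out in this way. Without the arrays with an Alb of 10 or more the Mcl1 slope was -0.023 ± 0.020. That fit had no mouse at 300 cGy and 1 each at 450 and 600 cGy.

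**Figure D4:**
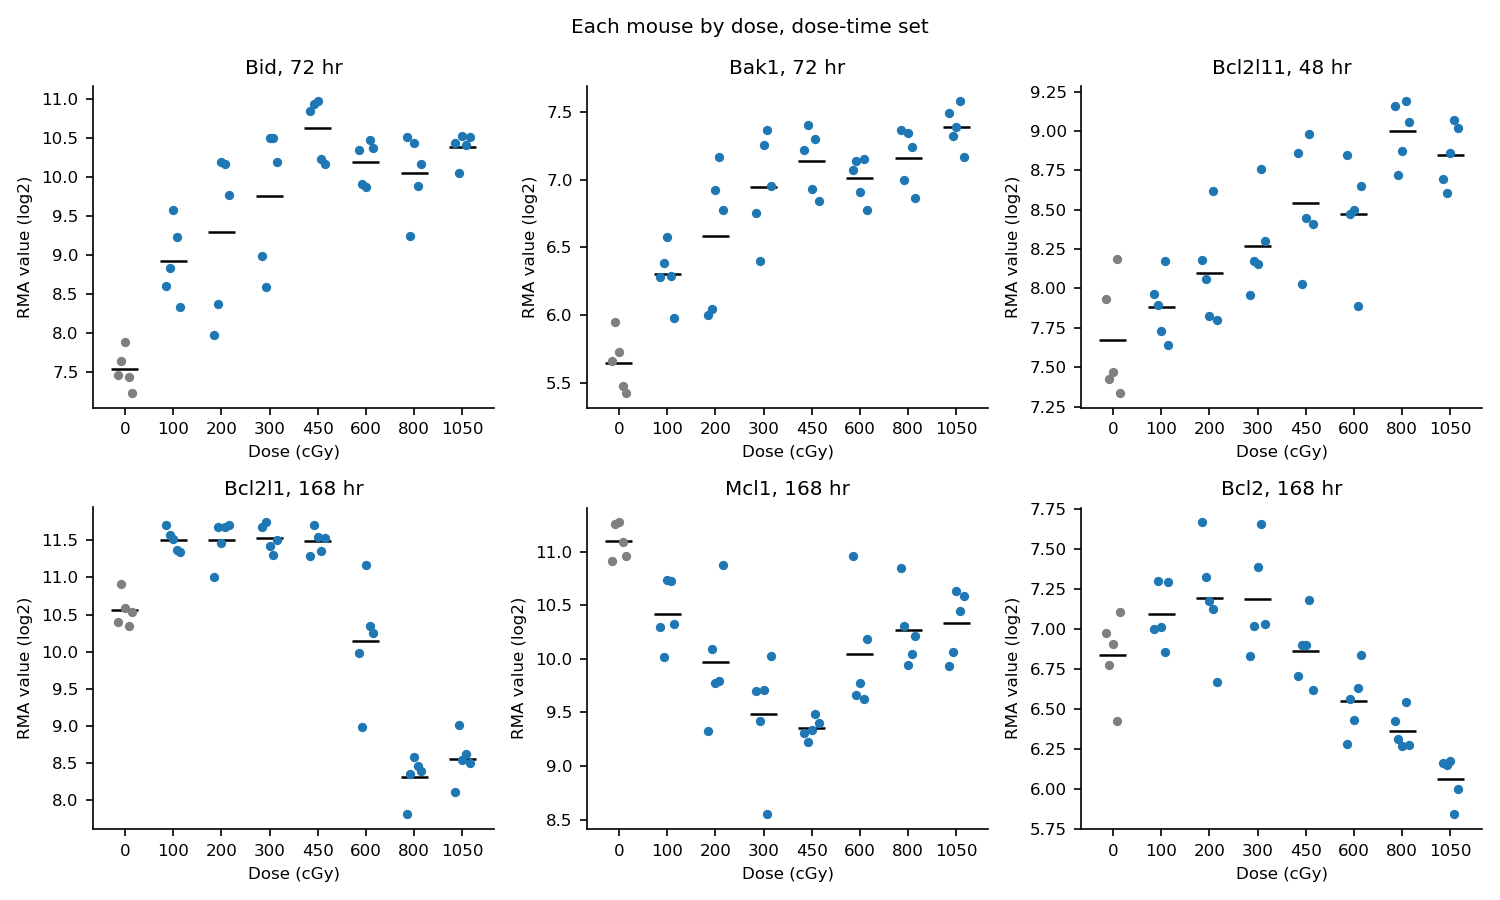
Log2 level of single mice by dose in cGy for Bid and Bak1 at 72 hr, Bcl2l11 at 48 hr, and Bcl2l1, Mcl1 and Bcl2 at 168 hr in the dose-time set (5 mice a dose, points are mice). Bid at 600 cGy lies between 9.88 and 10.48, above the 0 cGy mice at 7.23 to 7.89, and Mcl1 at 450 cGy lies between 9.22 and 9.49, below the 0 cGy mice at 10.91 to 11.28.

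The lowest dose was then set against 0 cGy at each time. At 6 hr 1 of the 6 genes differed (Mcl1, above), where 30% of all genes did. At 24 hr 2 of 6 rose, Bcl2 by 0.58 ± 0.17 (adjusted p = 0.0198) and Bid by 1.04 ± 0.27 (adjusted p = 0.00364), against 6.76% of all genes called. At 48 hr 3 of 6 rose against 36.1% of all genes called: Mcl1 by 0.74 ± 0.21, Bid by 1.28 ± 0.27 and Bak1 by 0.82 ± 0.19. Without the arrays with an Alb of 10 or more, Bcl2 at 24 hr (0.423 ± 0.184, adjusted p = 0.261) and Mcl1 at 48 hr (0.354 ± 0.309, adjusted p = 0.5) were not called, while Bid and Bak1 at 48 hr were (1.488 ± 0.355 and 1.176 ± 0.259). At 72 hr 3 of 6 rose against 13.8%: Bcl2l1 by 0.66 ± 0.21, Bid by 1.39 ± 0.27 and Bak1 by 0.66 ± 0.19. At 120 hr 5 of 6 differed against 71.3% of all genes: Bcl2 and Bcl2l1 rose by 0.65 ± 0.17 and 0.92 ± 0.21, and Mcl1, Bid and Bak1 differed by -1.27 ± 0.21, -0.75 ± 0.27 and -0.58 ± 0.19. With so many genes of the array called at 120 hr, that count is close to the background. The 0 cGy mice of 120 hr had the lowest Bcl2l1 mean of the unirradiated groups of that set, 9.87 ± 0.20, against 10.11 to 10.56 at the other times. At 168 hr 2 of 6 differed against 15%, Bcl2l1 by 0.94 ± 0.21 and Mcl1 by -0.68 ± 0.21.

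The small 7 day set held other mice at 150 cGy. Bcl2l1 ranged from 10.58 to 12.11 with a median of 11.50 in the 10 mice given 150 cGy, against 9.80, 10.09 and 10.18 in the 3 mice given 0 cGy. The groups did not overlap, and Bcl2l1 rose by 1.31 ± 0.27 (adjusted p = 0.000515). Mcl1 ranged from 9.73 to 11.39 with a median of 10.57, against 11.29, 11.44 and 11.46 (-0.91 ± 0.25, adjusted p = 0.00458), with 1 mouse given 150 cGy inside the 0 cGy range. Bcl2 rose by 0.55 ± 0.17 (adjusted p = 0.0101) and Bcl2l11 differed by -0.65 ± 0.23 (adjusted p = 0.0191). Thus 4 of 6 genes were called where 67.1% of all genes were, and the 3 control mice limit this set. Hepatocyte genes were high in some of these mice too: their mean level lay 0.27 to 4.08 above 0 cGy in the 10 mice given 150 cGy. The erythroid and reticulocyte list lay 0.59 to 1.42 above it.

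The sex-treatment set repeated 200 to 600 cGy at 6 and 24 hr in mice of known sex. With no agent, limma called none of the 6 genes at 6 hr (1 at an unadjusted p under 0.05; 19.9% of all genes were called), and Bid and Bak1 rose at 24 hr (41.2% of all genes were called). Bid ranged from 8.49 to 9.53 with a median of 9.28 in the 10 mice given 600 cGy, against 7.56 to 8.28 with a median of 7.94 in the 10 mice given 0 cGy. Every irradiated mouse, female or male, was above every unirradiated one, and the slope was 0.194 ± 0.042 (adjusted p = 5.23e-05). Bak1 ranged from 5.39 to 6.69 with a median of 6.26 at 600 cGy, against 5.25 to 5.93 with a median of 5.70 at 0 cGy, so the groups overlapped, and the slope was 0.075 ± 0.020 (adjusted p = 0.000847). All 12 platelet genes and all 11 mature neutrophil genes rose with dose in the same mice, with median slopes of 0.238 and 0.286.

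For GCSF alone at 0 cGy none of the 6 genes was called at 6 hr (0% of all genes were) or 24 hr (0.549%), and 1 had an unadjusted p under 0.05 at each time. Under GCSF, 0 of 6 followed dose at 6 hr, also at an unadjusted p under 0.05, where 52.6% of all genes did. At 24 hr Bid (0.162 ± 0.042, adjusted p = 0.00116) and Bak1 (0.070 ± 0.020, adjusted p = 0.00277) rose and Bcl2l1 fell (-0.121 ± 0.027, adjusted p = 0.000119), where 30.6% of all genes were called. The slope under GCSF was not shown to differ from that without agent for any of the 6 genes at 6 hr (0.0161% of all genes) or 24 hr (0.00807%), with 1 gene at an unadjusted p under 0.05 each time. For Bcl2l1 this includes the 24 hr slope, which was called with GCSF alone.

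LPS alone changed 2 of the 6 genes at each time. At 6 hr Bid ranged from 6.15 to 7.88 with a median of 7.28 in 8 mice given LPS, against 7.77 to 8.54 with a median of 8.06 in 10 mice given no agent, all at 0 cGy. The difference was -0.96 ± 0.28 (adjusted p = 0.00457), with a small overlap. Bak1 ranged from 5.80 to 6.57 with a median of 6.38 under LPS, against 5.48 to 6.31 with a median of 5.89 without agent, 0.42 ± 0.13 higher (adjusted p = 0.00806), where 35.2% of all genes were called. At 24 hr Bak1 ranged from 5.89 to 7.07 in 9 mice given LPS, against 5.25 to 5.93 in 10 mice given no agent, 0.84 ± 0.12 higher (adjusted p = 5.76e-09). Bcl2l1 ranged from 9.19 to 10.03 under LPS, against 9.62 to 10.93 (-0.48 ± 0.17, adjusted p = 0.0274), and 21.9% of all genes were called.

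The dose trends under LPS were fitted on their own. At 6 hr 4 of the 6 genes followed dose against 32.2% of all genes: Bcl2 rose (0.073 ± 0.029, adjusted p = 0.045), and Bcl2l1 (-0.111 ± 0.029, adjusted p = 0.00165), Mcl1 (-0.141 ± 0.040, adjusted p = 0.00469) and Bak1 (-0.055 ± 0.021, adjusted p = 0.0348) fell. The dimmest Bcl2l1 probe set turned here as well (0.074 ± 0.020, adjusted p = 0.0031). Mcl1 ranged from 8.78 to 11.12 with a median of 10.23 at 600 cGy, against 10.45 to 11.52 with a median of 10.79 at 0 cGy. Fits that left out 1 mouse of every group called 1 to 4 of these genes. None of these slopes was shown to differ from that without agent (0 of 6, against 6.45% of all genes, with 4 at an unadjusted p under 0.05). The mean level of the mature neutrophil list at 600 cGy lay between -1.93 and -1.45 relative to 0 cGy in these females. In these males it lay between -2.38 and -0.89.

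At 24 hr none of the 6 genes followed dose under LPS, also at an unadjusted p under 0.05 (13% of all genes did), and the slope of Bid differed from that without agent by -0.244 ± 0.061 (adjusted p = 0.00134), 1 of 6 genes against 16.5% of all genes. Under LPS Bid ranged from 4.51 to 8.24 with a median of 7.69 at 600 cGy, against 6.80 to 8.46 with a median of 7.72 at 0 cGy. These groups overlapped, unlike the Bid values without agent, and the lowest mouse, at 4.51, was a female. The platelet list at 600 cGy and 24 hr was 0.02 and 0.38 above 0 cGy in females and males given LPS, and 1.34 and 1.48 above it in females and males given no agent; its part in the Bid result was not tested.

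**Figure D5:**
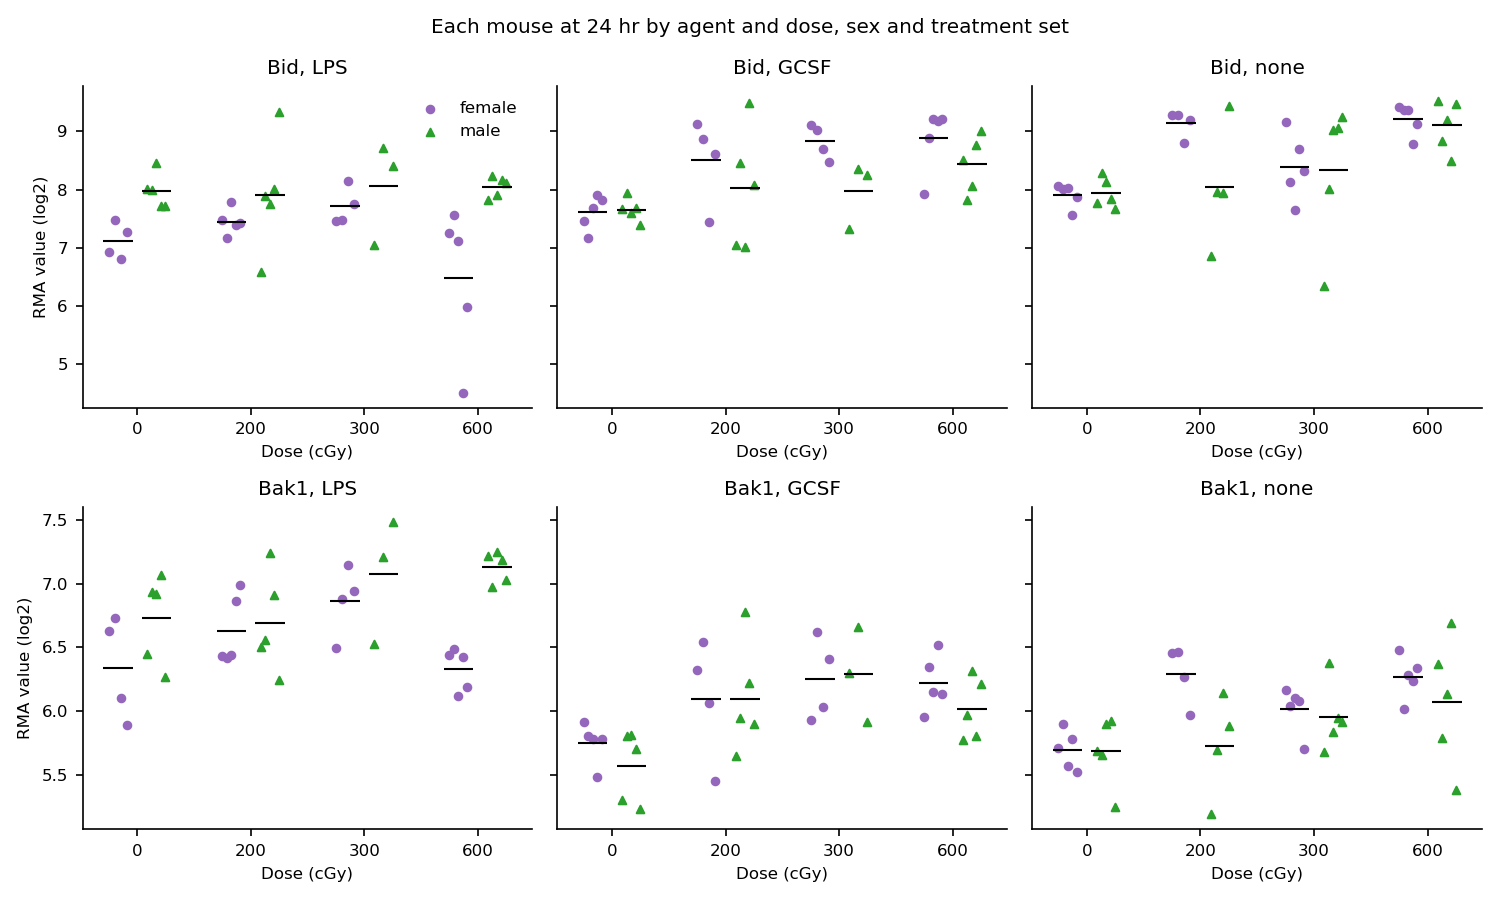
Log2 levels of Bid and Bak1 in single mice at 24 hr by dose in cGy under LPS, GCSF and no agent in the sex-treatment set (circles are females, triangles males, bars the mean of each sex). Bid at 600 cGy lies between 8.49 and 9.53 with no agent and between 4.51 and 8.24 with LPS.

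Sex was compared over all 3 agents. At 0 cGy and 6 hr 2 of the 6 genes were higher in females, Bcl2l1 by 0.74 ± 0.14 (adjusted p = 4.79e-06) and Bcl2l11 by 0.81 ± 0.15 (adjusted p = 3.31e-06), where 62.5% of all genes differed. The dimmest Bcl2l1 probe set gave the opposite direction (-0.430 ± 0.099, adjusted p = 1.41e-04), and a Bcl2l11 probe set with a mean level of 4.34 gave -0.075. With no agent Bcl2l11 ranged from 8.23 to 8.63 in 5 females and from 7.36 to 7.96 in 5 males, with no overlap. Over all 3 agents at 0 cGy and 6 hr, all 11 B cell genes and 9 of 10 T cell genes were also higher in females. At 0 cGy and 24 hr Bcl2l1 differed the other way (-0.43 ± 0.14, adjusted p = 0.0382), 1 of 6 genes against 5.97% of all genes. For Bcl2l11 no sex difference was detected there (0.042 ± 0.147, adjusted p = 0.905). The dose slope of Bcl2l1 at 6 hr was lower in females, with a difference of -0.105 ± 0.032 per 100 cGy (female minus male, adjusted p = 0.00937), 1 of 6 against 22.2% of all genes, and at 24 hr none of the 6 slopes differed by sex (0.0161% of all genes, with 1 of 6 at an unadjusted p under 0.05).

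The small treatment set gave 6 hr in other mice. With no agent, 600 cGy raised 3 of the 6 genes against 7.38% of all genes called. Mcl1 stood at 11.45, 11.46, 11.52, 11.59 and 11.74 at 600 cGy, against 10.49 to 11.09 with a median of 10.98 in 6 mice at 0 cGy, 0.64 ± 0.19 higher with no overlap (adjusted p = 0.0313). Bak1 rose by 0.49 ± 0.13 (adjusted p = 0.0113) and Bcl2l11 by 0.57 ± 0.18 (adjusted p = 0.0378). Leaving out 1 mouse of every group gave 0 to 4 calls here. Under GCSF 2 of 6 rose against 25% of all genes called, Mcl1 by 0.78 ± 0.19 (adjusted p = 0.0018) and Bid by 0.88 ± 0.20 (adjusted p = 0.000768). A mouse given GCSF and 0 cGy had the low values of 9.55 for Mcl1 and 6.19 for Bid, and in a fit of those groups alone neither gene passed (adjusted p = 0.0746 and 0.0865). In 5 fits with 1 mouse fewer in each group the difference ran from 0.541 to 0.831 for Mcl1 and from 0.521 to 1.003 for Bid, and both were called in all 5. Of the other 5 Mcl1 probe sets, 3 gave the opposite direction under GCSF (-0.084, -0.176 and -0.228), none of them called. Under LPS 0 of 6 were called at 600 cGy (16% of all genes), with 3 at an unadjusted p under 0.05. At 150 cGy 0 of 6 were called with no agent (3.83% of all genes), GCSF (1.77%) or LPS (3.58%), with 1, 3 and 1 at an unadjusted p under 0.05. LPS alone raised Bcl2l1 by 0.46 ± 0.13 (adjusted p = 0.00761) and Bcl2l11 by 0.48 ± 0.17 (adjusted p = 0.0285) at 0 cGy, 2 of 6 against 26.2% of all genes. GCSF alone called none (0.549%), with 2 at an unadjusted p under 0.05.

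Of the other genes of the pathway, 39 were measured in 6 lists (other survival members, other effectors, other BH3-only, BCL2-related, caspase activation below mitochondria, and regulators of the 6 genes). Bax, Trp53, Bcl2a1a, Bcl2a1b and Bcl2a1d were not analysed here. The numbers rising and falling with dose in the dose-time set were 13 and 7 (6 hr), 5 and 9 (24 hr), 12 and 9 (48 hr), 14 and 13 (72 hr), 17 and 18 (120 hr) and 16 and 18 (168 hr), which may be read against the shares of all genes given above. Among the BH3-only genes at 6 hr, Pmaip1 (NOXA) rose by 0.111 ± 0.022 per 100 cGy, Hrk by 0.067 ± 0.014 and Bad by 0.049 ± 0.010. Bbc3, which encodes the p53 target PUMA, rose by 0.127 ± 0.012 at 48 hr and 0.095 ± 0.012 at 72 hr. Bad rose at 120 hr by 0.123 ± 0.010 and at 168 hr by 0.208 ± 0.010, when Hrk had a slope of -0.151 ± 0.014 at both times.

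Below mitochondria, Birc2, an inhibitor of apoptosis protein, fell with dose at 48, 72, 120 and 168 hr, with slopes of -0.153 ± 0.020, -0.104 ± 0.020, -0.328 ± 0.020 and -0.351 ± 0.020. Casp6, an executioner caspase, rose at 48 hr (0.075 ± 0.012) and 72 hr (0.111 ± 0.012), and Cycs, which encodes cytochrome c, fell (-0.188 ± 0.020 and -0.162 ± 0.020). Of the regulators, Stat3, which can drive Mcl1 and Bcl2l1, rose at 48 hr by 0.176 ± 0.014 and at 168 hr by 0.128 ± 0.014. Gsk3b, a kinase that marks MCL1 for degradation, rose at 72 hr by 0.277 ± 0.021, and Foxo1 fell at 48 hr (-0.126 ± 0.014) and 72 hr (-0.139 ± 0.014). Bok, the third effector, rose at 6 hr (0.049 ± 0.012) and fell at 120 hr (-0.044 ± 0.012), and Bcl2l2 (BCL-W) rose at 72, 120 and 168 hr by 0.056 ± 0.011, 0.093 ± 0.011 and 0.078 ± 0.011.

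Patterns most like each gene were looked for over the 48 group means of the dose-time set, with the same correlation over the 48 group means of the sex-treatment set beside it. Bcl2l1 was closest to Gclm (r = 0.98, and 0.94 in the sex-treatment set) and Fam214b (0.96 and 0.95). Mcl1 was closest to Lyst (0.93 and 0.94) and Bid to Rtn3 (0.99 and 0.92). Bak1 was closest to Ergic3 (0.97 and -0.02) and Bcl2l11 to Pbxip1 (0.93 and 0.02), which did not follow them in the second set. Bcl2 was closest to Sla2 (0.91 and 0.59). Among the 6 genes themselves, Bak1 and Bcl2l11 ran together over the dose-time groups (r = 0.81), as did Bid and Bak1 (0.65), while Bak1 and Bcl2 ran opposite (-0.66). In the sex-treatment set these were -0.03, -0.05 and -0.24. The points share array runs and depth of signal within a set, and the correlations are descriptions.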

How the data were processed

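Globin-reduced RNA of peripheral blood was hybridised to Affymetrix Mouse 430A 2.0 arrays. The deposited values are log2 signals made by RMA in the affy package, per the submitters' processing notes, with no version or settings given. No raw intensities were used, so the number of mice limits the precision. Of 22690 probe sets, 20380 with 1 gene symbol gave 12393 genes, each by its probe set with the highest mean. The 6 genes and the other lists were chosen with earlier results of these data known. Each set was fitted on its own in limma (version 3.58.1, R 4.3.3): a mean per group, empirical Bayes, and Benjamini-Hochberg adjustment over all genes, with an adjusted p of 0.05 as threshold. For 2 mice a second array, with an r after the code in its title, was averaged with the first. It was read as a repeat scan, which the labels do not say. The test was checked on simulated data. The array run is read from the code in the title, which the labels do not explain. Members were named in every comparison, pathway genes by smallest p within each list (up to 4 a comparison), and like genes by correlation. Alternatives were the array run or mouse number as a block, fewer groups, a dim gene filter, other probe sets, other scalings, priors and array weights, other dose scales, left-out arrays and left-out mice. Array weights used the gene-by-gene method, chosen after seeing the files.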

Additional observations from a re-analysis of the deposited data

Results flagged for a closer look

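A mouse whose value lay far from the others of its group, by Dixon's test, was found in 33 of 618 gene and group pairs tested (5.3%). Chance alone gives about 1 in 20. The value was the lowest of its group in 21 and the highest in 12.

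Among the dose-time mice single mice had Bcl2 at 7.12 (100 cGy 6 hr, the lowest, against 7.40 to 7.51 in the others) and 7.33 (300 cGy 120 hr, the highest, against 6.93 to 6.97 in the others). In the small treatment set a mouse had Bcl2 at 6.63 (no agent, 600 cGy 6 hr, the highest, against 6.52 to 6.54 in the others).

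Among the dose-time mice single mice had Bcl2l1 at 10.44 (100 cGy 120 hr, the lowest, against 10.82 to 10.92 in the others), 10.87 (200 cGy 48 hr, the highest, against 10.21 to 10.25 in the others), 10.11 (200 cGy 6 hr, the lowest, against 10.57 to 10.64 in the others), 9.87 (300 cGy 24 hr, the highest, against 8.71 to 9.01 in the others) and 10.13 (300 cGy 6 hr, the lowest, against 10.51 to 10.66 in the others). Among the sex-treatment mice single mice had Bcl2l1 at 11.03 (female no agent, 300 cGy 6 hr, the highest, against 10.29 to 10.33 in the others) and 10.00 (male GCSF 0 cGy 6 hr, the lowest, against 10.23 to 10.32 in the others).

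Among the dose-time mice a mouse had Mcl1 at 10.06 (300 cGy 72 hr, the lowest, against 10.64 to 10.87 in the others). Among the sex-treatment mice single mice had Mcl1 at 11 (female GCSF 600 cGy 24 hr, the lowest, against 11.58 to 11.72 in the others) and 11.66 (male no agent, 0 cGy 6 hr, the highest, against 10.68 to 10.88 in the others). In the small treatment set single mice had Mcl1 at 9.55 (GCSF 0 cGy 6 hr, the lowest, against 10.91 to 11.41 in the others) and 10.49 (no agent, 0 cGy 6 hr, the lowest, against 10.90 to 11.09 in the others).

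In the dose-time set a mouse had Bcl2l11 at 7.18 (200 cGy 24 hr, the lowest, against 7.65 to 7.82 in the others). Among the sex-treatment mice single mice had Bcl2l11 at 8.38 (male LPS 0 cGy 24 hr, the highest, against 7.56 to 7.76 in the others) and 8.30 (male LPS 200 cGy 24 hr, the highest, against 7.78 to 7.88 in the others).

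In the dose-time set single mice had Bid at 7.24 (100 cGy 168 hr, the lowest, against 7.56 to 7.62 in the others), 10.06 (1050 cGy 72 hr, the lowest, against 10.42 to 10.53 in the others), 6.10 (200 cGy 168 hr, the lowest, against 6.86 to 7.08 in the others), 8.77 (300 cGy 48 hr, the lowest, against 10.20 to 10.38 in the others) and 8.95 (600 cGy 48 hr, the lowest, against 9.85 to 10.18 in the others). In the sex-treatment set single mice had Bid at 7.92 (female GCSF 600 cGy 24 hr, the lowest, against 8.88 to 9.21 in the others), 6.00 (female LPS 300 cGy 6 hr, the lowest, against 7.61 to 7.85 in the others) and 8.57 (female no agent, 200 cGy 6 hr, the highest, against 8.15 to 8.26 in the others). In the small treatment set single mice had Bid at 6.19 (GCSF 0 cGy 6 hr, the lowest, against 8.13 to 8.40 in the others) and 7.82 (LPS 600 cGy 6 hr, the lowest, against 8.21 to 8.43 in the others).

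In the dose-time set single mice had Bak1 at 6.15 (100 cGy 168 hr, the highest, against 5.46 to 5.60 in the others) and 6.90 (200 cGy 24 hr, the highest, against 5.93 to 6.12 in the others). In the sex-treatment set single mice had Bak1 at 5.35 (female GCSF 200 cGy 6 hr, the lowest, against 5.84 to 5.96 in the others), 5.70 (female no agent, 300 cGy 24 hr, the lowest, against 6.04 to 6.17 in the others) and 6.50 (male no agent, 300 cGy 6 hr, the highest, against 6.02 to 6.14 in the others).

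The dose slope differed between the 6 times for each gene, with F values of 9.25 for Bcl2, 93.952 for Bcl2l1, 11.468 for Mcl1, 6.905 for Bcl2l11, 22.258 for Bid and 31.245 for Bak1 (adjusted p of 8.13e-06 at most), where 92.3% of all genes differed. The dose slope of Bcl2l1 at 6 hr differed by sex, by -0.105 ± 0.032 per 100 cGy (female minus male, adjusted p = 0.00937). The dose slope of Bid at 24 hr was lower under LPS than without agent, by -0.244 ± 0.061 (adjusted p = 0.00134).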

How the results depend on the processing

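The 40 comparisons were repeated under the alternatives that apply to them, from all 40 down to a single one, which gave 4214 values for the 6 genes. In 3848 the direction of a called value and the side of the threshold stayed, 163 lost and 147 gained their call, and 56 turned their sign; 306 values not called in either fit turned their sign as well. The dim gene filter, the trended and robust prior and the first scan alone changed no call. The array run as a block changed 2, both gains. The number of mice limits every value. The cause of the changes was not tested, apart from the fewer mice or doses that an alternative holds by its construction.

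In the dose-time set, doses of 0 to 300 cGy alone turned these slopes: Bcl2 0.025 at 72 hr, 0.052 at 120 hr and 0.114 at 168 hr; Bcl2l1 -0.315 at 24 hr, 0.465 at 120 hr and 0.292 at 168 hr; Bcl2l11 -0.142 at 24 hr, -0.157 at 120 hr and -0.398 at 168 hr; Mcl1 -0.131 at 6 hr and -0.209 at 120 hr; Bak1 -0.134 at 168 hr. Under this setting 0 of the 6 genes were called at 6 hr (2 in full), 3 at 72 hr (5) and 3 at 120 hr (5). Leaving out arrays with an Alb of 10 or more turned Bcl2 (0.048 at 120 hr and 0.106 at 168 hr), Bcl2l1 (0.462 and 0.284), Bcl2l11 (-0.159 and -0.402), Mcl1 (-0.213 at 120 hr) and Bak1 (-0.140 at 168 hr), and left 3 calls at 120 hr (5) and 1 call for 100 cGy at 24 hr (2). Without the 800 cGy mice 0 genes were called at 24 hr (3). The F test over the 7 doses called 1 gene at 6 hr (2).

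The mean of all probe sets of a gene turned the slopes at 168 hr of Bcl2l11 (-0.001) and Mcl1 (0.074). Quantile normalisation turned that of Mcl1 at 120 hr (-0.051) and moved the median difference of all genes at 100 cGy and 120 hr by -0.104. Other probe sets turned more. For Mcl1 the slope at 168 hr was 0.085, 0.083, 0.094, 0.093 and 0.115, that at 72 hr 0.092 in 1 of them, and the 600 cGy difference under GCSF -0.084, -0.176 and -0.228 in 3. For Bcl2l11 the slope at 168 hr was -0.016, -0.050 and -0.032, that at 120 hr -0.006 and -0.017, the 150 cGy difference at 168 hr 0.067 and 0.063, and 1 probe set gave 0.417 and 0.384 for 100 cGy at 120 and 6 hr, 0.044 and 0.057 for the 6 hr slopes under GCSF and LPS, and -0.075 for sex at 6 hr. For Bcl2l1 1 probe set gave -0.076 for 100 cGy at 72 hr, slopes of -0.010 at 48 hr and -0.016 at 72 hr, 0.019 at 24 hr and 0.061 at 6 hr under GCSF, 0.074 at 6 hr under LPS, and -0.430 and 0.015 for sex and its slope at 6 hr. The second probe set of Bid gave 0.024 for 100 cGy at 120 hr, and that of Bak1 0.319 for it, -0.013 for the slope at 120 hr and 0.025 for the 6 hr slope under LPS.

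Counts of called genes that moved by over 1.5 times (full count in brackets) were as follows. With array weights they were 1 for the 6 hr trend of the dose-time set (2), and in the sex-treatment set 3 for the 6 hr trend without agent (0), 2 under GCSF (0), 1 for the 24 hr trend under LPS (0), 2 for the LPS slope difference at 6 hr (0), 1 for the GCSF slope difference at 24 hr (0), 3 for the sex slope difference at 6 hr (1), 4 and 5 for LPS at 0 cGy (2 and 2), and 1 and 1 for GCSF at 0 cGy (0 and 0). In the small treatment set the weights gave 2 for 150 cGy without agent (0), 1 for 150 cGy under LPS (0), 2 for 600 cGy under LPS (0) and 4 for LPS at 0 cGy (2). With only the groups compared they were 1 for the LPS slope difference at 6 hr (0), 2 for the sex slope difference at 6 hr (1), 1 for GCSF (0), 4 for LPS (2) and 2 for sex (1) at 0 cGy and 24 hr, and 1, 0 and 2 for 600 cGy without agent, under GCSF and under LPS in the small treatment set (3, 2 and 0). With the mean of all probe sets they were 3 for 100 cGy at 120 hr (5), 1 and 2 for the 6 hr trends without agent and under LPS (0 and 4), 1 for the LPS slope difference (0), 2 for the sex slope difference (1) and 4 for LPS at 0 cGy (2) at 6 hr, 1, 1 and 0 for GCSF, LPS and sex at 0 cGy and 24 hr (0, 2 and 1), and 1 and 1 for 150 and 600 cGy under LPS in the small treatment set (0 and 0). With quantile normalisation they were 1 for 100 cGy at 24 hr (2), 1 for the 6 hr trend without agent (0), 1 for the LPS slope difference at 6 hr (0), 4 and 0 for LPS and sex at 0 cGy and 24 hr (2 and 1), and 2 for 600 cGy under LPS (0). With arrays centred on their median, sex at 0 cGy and 24 hr gave 0 (1). With dose on a log2 scale, 2 genes followed dose at 6 hr without agent (0), and the slope differences at 6 hr gave 1 for LPS (0) and 2 for sex (1).

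Fits with 1 mouse fewer in each group gave, for the dose-time set, 1 to 2 calls for the 6 hr trend, 0 to 2 for 24 hr, and for 100 cGy 1 to 2 at 24 hr, 3 to 6 at 120 hr and 1 to 2 at 168 hr. In the sex-treatment set it gave 1 to 4 for the 6 hr trend under LPS, 0 to 1 for the LPS and 0 to 2 for the sex slope difference at 6 hr, 1 to 2 for LPS at 0 cGy at 6 hr and at 24 hr, and 0 to 1 for sex at 0 cGy and 24 hr. In the small treatment set it gave 0 to 4 for 600 cGy without agent, 0 to 1 for 150 cGy without agent, 0 to 2 for 600 cGy under LPS and 0 to 3 for LPS at 0 cGy. The 48 and 72 hr trends kept 6 and 5 calls throughout.

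Mouse numbers do not pair the mice: the deviations of same-numbered mice correlated by 0.02 on average (dose-time) and 0.04 (sex-treatment). As a replicate block they moved the sex slope difference at 6 hr to 2 calls (1) and 600 cGy under LPS in the small treatment set to 1 call (0).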

Other observations

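In the 5 mice of the small 7 day set that were given 0 cGy and bled at 6 or 24 hr, and that enter no comparison, Bid stood at 8.10, 8.29 and 8.61 at 6 hr and at 8.34 and 8.44 at 24 hr. Mcl1 stood at 11.17, 11.26 and 11.56 at 6 hr and at 11.26 and 11.55 at 24 hr in these mice, and Bak1 at 6.43, 6.44 and 6.61 and at 6.31 and 6.41. Both repeat scans of the dose-time set differed from the first by at most 0.15 log2 units (300 cGy, 48 hr) and 0.41 (1050 cGy, 168 hr) for any of the 6 genes.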
